A study of Mus musculus with 23 samples.

Results

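A set of 10 genes of the heat shock response was followed through the transcriptome of sorted mouse cortical astrocytes. They were Hsf1, the transcription factor of the response, and its known targets Hspa1a, Hspa1b, Hspa8, Hsph1, Hsp90aa1, Dnajb1, Hspb1, Hspe1 and Bag3. They were taken by symbol and make up 10 of the 24411 genes in the count table. The set was selected on measured values, since it was put together after Hspa1a had stood out for sulforaphane (SFN) in astrocytes with the deletion, and the other genes joined it by name as partners of Hspa1a in the response. The difference between SFN-fed and control-fed deleted astrocytes is therefore given as a description with no test.

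The study asked how loss of Aldh7a1, a dehydrogenase of lysine catabolism, changes astrocytes, and what SFN, an isothiocyanate that activates the transcription factor NRF2, does to them. All mice were homozygous for a floxed Aldh7a1 allele. The deleted group (cKOAstro) carried 1 copy of Slc1a3-CreER, a tamoxifen-inducible Cre driven by the glutamate transporter gene Slc1a3, which is active in astrocytes and also in other glia and their progenitors. Controls (ConAstro) lacked Cre, and the paper reported that Slc1a3 itself also differed between the genotypes. Loss of Aldh7a1, presence of Cre and the difference in Slc1a3 therefore cannot be told apart in the genotype comparisons. Both genotypes received 4-hydroxytamoxifen on postnatal days 3 to 4. They then had either a control diet or an SFN diet from postnatal day 21 to 70. Cortex was taken from mice labelled male on postnatal day 70, astrocytes were isolated with magnetic beads against the surface antigen ACSA-2, and 1 library was made per mouse. On the control diet there were 4 ConAstro and 7 cKOAstro mice, and on the SFN diet 7 SFN-fed cKOAstro and 5 SFN-fed ConAstro mice. Each p-value below measures the spread between mice.

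Heat shock proteins are chaperones that bind unfolded proteins, hold them in solution and help them refold. In resting cells HSF1 is kept inactive in part by the chaperones themselves. When misfolded proteins draw these away, HSF1 forms trimers, enters the nucleus and binds repeated GAA units in alternating orientation (heat shock elements) upstream of chaperone genes. Enzymatic and mechanical dissociation of tissue is itself known to induce some of these genes, together with immediate early genes. In bulk RNA, fewer cells of a type and less RNA per cell cannot be told apart.

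In 3 libraries a marker gene went against the label. Libraries held 46890715 to 391701247 counts, with the deepest in cKOAstro (median 234453170). The targeted gene Aldh7a1 was at 207 to 220 CPM (counts scaled to library size with the trimmed mean of M values, TMM) in ConAstro and 45.9 to 77.2 in cKOAstro. The library labelled SFN-fed ConAstro replicate 1 had 55.7 CPM, against 177 to 226 in the others of its group. In contrast, SFN-fed cKOAstro replicate 2 as labelled had 222 CPM, against 43 to 56.5 in its group. The library labelled cKOAstro replicate 2 had 1533 CPM of Xist and 0.00766 of Ddx3y, while no other library exceeded 0.695 CPM of Xist or fell under 83.6 of Ddx3y. The main differences of Hspa1a and Hspa1b, the members' correlations and the counts that moved are given with and without these libraries. Of the 6 astrocyte markers (Aqp4, Gfap, Aldh1l1, Slc1a2, Gja1 and Atp1b2) the summed level was 10100 to 20900 CPM over all libraries, beside 17900 to 46500 CPM of 5 oligodendrocyte markers led by myelin genes. The 4 haemoglobin genes had 0 counts in every library.

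The upstream sequences are shown because the members share the HSF1 recognition unit to different degrees. The set of RefSeq promoters used here (build GRCm38.p6) held 7 of the 10 members and lacked Hspa8, Hsp90aa1 and Hsf1, which were therefore not searched. The 250 bases before each start site were searched for pairs of inverted GAA units (GAANNTTC or TTCNNGAA, each its own reverse complement, so that 1 search covers both strands). Such a pair stood in 4218 of 32851 promoters of that length, or 12.8%, and in 5 of the 7 members. Capitals mark the pairs.
Hspa1a, chr17:34972157-34972406, minus strand: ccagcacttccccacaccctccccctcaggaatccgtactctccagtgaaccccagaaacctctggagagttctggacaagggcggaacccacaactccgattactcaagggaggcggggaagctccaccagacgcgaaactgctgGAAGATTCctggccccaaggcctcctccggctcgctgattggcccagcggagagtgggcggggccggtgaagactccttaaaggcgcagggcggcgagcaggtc
Hspa1b, chr17:34959239-34959488, minus strand: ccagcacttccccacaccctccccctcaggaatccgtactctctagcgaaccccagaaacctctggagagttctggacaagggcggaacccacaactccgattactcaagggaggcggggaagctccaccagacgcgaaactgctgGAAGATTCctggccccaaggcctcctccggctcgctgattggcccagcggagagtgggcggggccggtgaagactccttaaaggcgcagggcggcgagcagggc
Hspb1, chr5:135887669-135887918, plus strand: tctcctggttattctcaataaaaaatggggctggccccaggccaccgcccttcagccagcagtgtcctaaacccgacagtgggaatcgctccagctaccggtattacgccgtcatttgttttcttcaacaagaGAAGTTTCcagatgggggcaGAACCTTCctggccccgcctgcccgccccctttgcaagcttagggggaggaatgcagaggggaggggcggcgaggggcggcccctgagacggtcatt
Hspe1, chr1:55088054-55088081, plus strand, bases 94 to 67 before the start: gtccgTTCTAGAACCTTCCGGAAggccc

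Hspa1a and Hspa1b had the same base at 247 of 250 positions (98.8%), and their single pair lay at the same place, 104 to 97 bases before the start. Hspb1 had 2 pairs, at 117 to 110 and 97 to 90 bases before its start. In Hspe1, 3 pairs overlapped within 89 to 72 bases before the start, which makes 2 overlapping runs of 3 alternating units (GAANNTTCNNGAA or TTCNNGAANNTTC, found in 153 promoters, 0.466%). Hsph1 has 2 annotated starts close together, and the same single pair lay before both, at 54 to 47 and 33 to 26 bases. Neither of the 2 Dnajb1 starts nor the Bag3 start had a pair in this window. The core of the antioxidant response element that NRF2 binds was searched as TGACNNNGC or GCNNNGTCA on either strand (in 3338 promoters, 10.2%). It was found before Hsph1, with the same 2 matches before both starts. Dnajb1 had 1 match, at 15 to 7 bases before 1 of its starts. These are letter matches, not measured binding sites.

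Per kilobase of exon, Hspa8 and Hsp90aa1 were the most abundant members. Hspa8, the constitutive cytosolic HSP70, had a median of 172 CPM per kb over the 23 libraries (120 to 261), and Hsp90aa1, the inducible cytosolic HSP90, 130 (89.4 to 217). Their ranges overlapped each other but not those of the remaining members. Hspe1, the mitochondrial co-chaperonin HSP10, followed at 22.5 CPM per kb (17.7 to 33.3). Dnajb1, an HSP40 that hands substrates to HSP70, was at 18.8 (11.7 to 34.8). Bag3, a co-chaperone that links HSP70 to autophagy, was at 17 (14.2 to 22.7), and Hsph1, the HSP110 nucleotide exchange factor of HSP70, at 15.4 (10.4 to 45.3). In these uniquely mapped counts the stress-inducible HSP70 genes were low, with Hspa1b at 11.6 CPM per kb (4.83 to 30.7) and Hspa1a at 9.04 (4.56 to 23.1). Hspb1, the small heat shock protein HSP25, was at 10.8 (5.8 to 21.1). Hsf1 was lowest at 6.06 (5.44 to 7.94). From Hspe1 down, the range of each member overlapped that of the next.

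Several members have near-identical copies, so their counts carry some uncertainty. In GENCODE M21 (GRCm38), Hspa1a (chr17:34969190-34972156, minus strand) is a single exon of 2967 bases. Hspa1b (chr17:34956436-34959238, minus strand) is a single exon of 2803 bases. Of all windows of 100 bases in the Hspa1b transcript, 49.9% also occur in Hspa1a, and 47.1% of Hspa1a windows occur in Hspa1b. Only uniquely mapped reads were counted, and the share of reads lost because they fit both copies was not measured here. Shared windows also made up 44% of Hspb1 (pseudogene Hsp25-ps1), 38% of Hsp90aa1, 28.2% of Hspa8 and 10% of Hspe1, and none of Hsf1, Hsph1, Dnajb1 or Bag3. The levels per kilobase above divide by the full exon length, with no correction for shared windows. The part of lost reads in the order of the members, such as the low places of Hspa1a, Hspa1b and Hspb1, was not tested. On the opposite strand, Gm20481 overlaps 564 bases (19%) of Hspa1a and Hspd1 overlaps 112 bases (7.6%) of Hspe1. Since the use of strand in counting was not given in the sources used here, reads of these pairs may be mixed or left out.

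Hspa1a encodes the stress-inducible cytosolic HSP70, which most resting cells make little of. In ConAstro, replicates 1 to 4 had 18.2, 51.5, 37.4 and 27.5 CPM. In cKOAstro, Hspa1a ranged from 14.4 through a median of 19.3 to 29.6 CPM. In SFN-fed ConAstro, replicates 1 to 5 had 46.0, 15.4, 13.5, 30.2 and 22.2 CPM, with the highest value in the library whose Aldh7a1 was low. Levels in SFN-fed cKOAstro ranged from 18.9 through a median of 37.4 to 68.6 CPM, with the lowest value in the library whose Aldh7a1 was at the control level. By mean ± SD the order was SFN-fed cKOAstro (40.7 ± 16.9), ConAstro (33.6 ± 14.3), SFN-fed ConAstro (25.5 ± 13.2) and cKOAstro (19.6 ± 4.90), and each group overlapped the next in this order. All 7 cKOAstro libraries lay below the ConAstro median, 3 of them below the lowest ConAstro library. Of the 7 SFN-fed cKOAstro libraries, 5 lay above the highest cKOAstro library.

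Hspa1b, which encodes a nearly identical HSP70, varied with Hspa1a from library to library. Its 4 ConAstro values were 22.1, 67.4, 59.7 and 34.2 CPM. In cKOAstro it ranged from 16.3 through a median of 20.9 to 55.2 CPM, and the highest value was in replicate 2, the library with Xist. The 5 SFN-fed ConAstro values were 54.8, 17.8, 13.5, 32.6 and 21.4 CPM, again with replicate 1 on top. SFN-fed cKOAstro libraries ranged from 22.4 through 41.9 to 86.0 CPM. All pairs of groups overlapped. The ratio of Hspa1b to Hspa1a CPM had a median of 1.18 over the 23 libraries (0.964 to 1.87).

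The regulator and the remaining small members varied little between groups. Hsf1 had 39.4, 46.4, 42.1 and 44.7 CPM in ConAstro, 40.2 to 56.3 (median 42.6) in cKOAstro, 38.6 to 43.1 (41.3) in SFN-fed ConAstro and 40.0 to 49.9 (47) in SFN-fed cKOAstro. Bag3 had 40.2 to 52.8 CPM in ConAstro, 36.3 to 50.7 in cKOAstro, 43.3 to 45.6 in SFN-fed ConAstro and 39.6 to 58.1 in SFN-fed cKOAstro. Hspb1 was the least counted member, at 5.97 to 16.3 CPM, 8.07 to 21.7, 9.96 to 14.6 and 9.66 to 16.1 in the same order of groups. For all 3 genes every pair of groups overlapped.

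**Figure D1:**
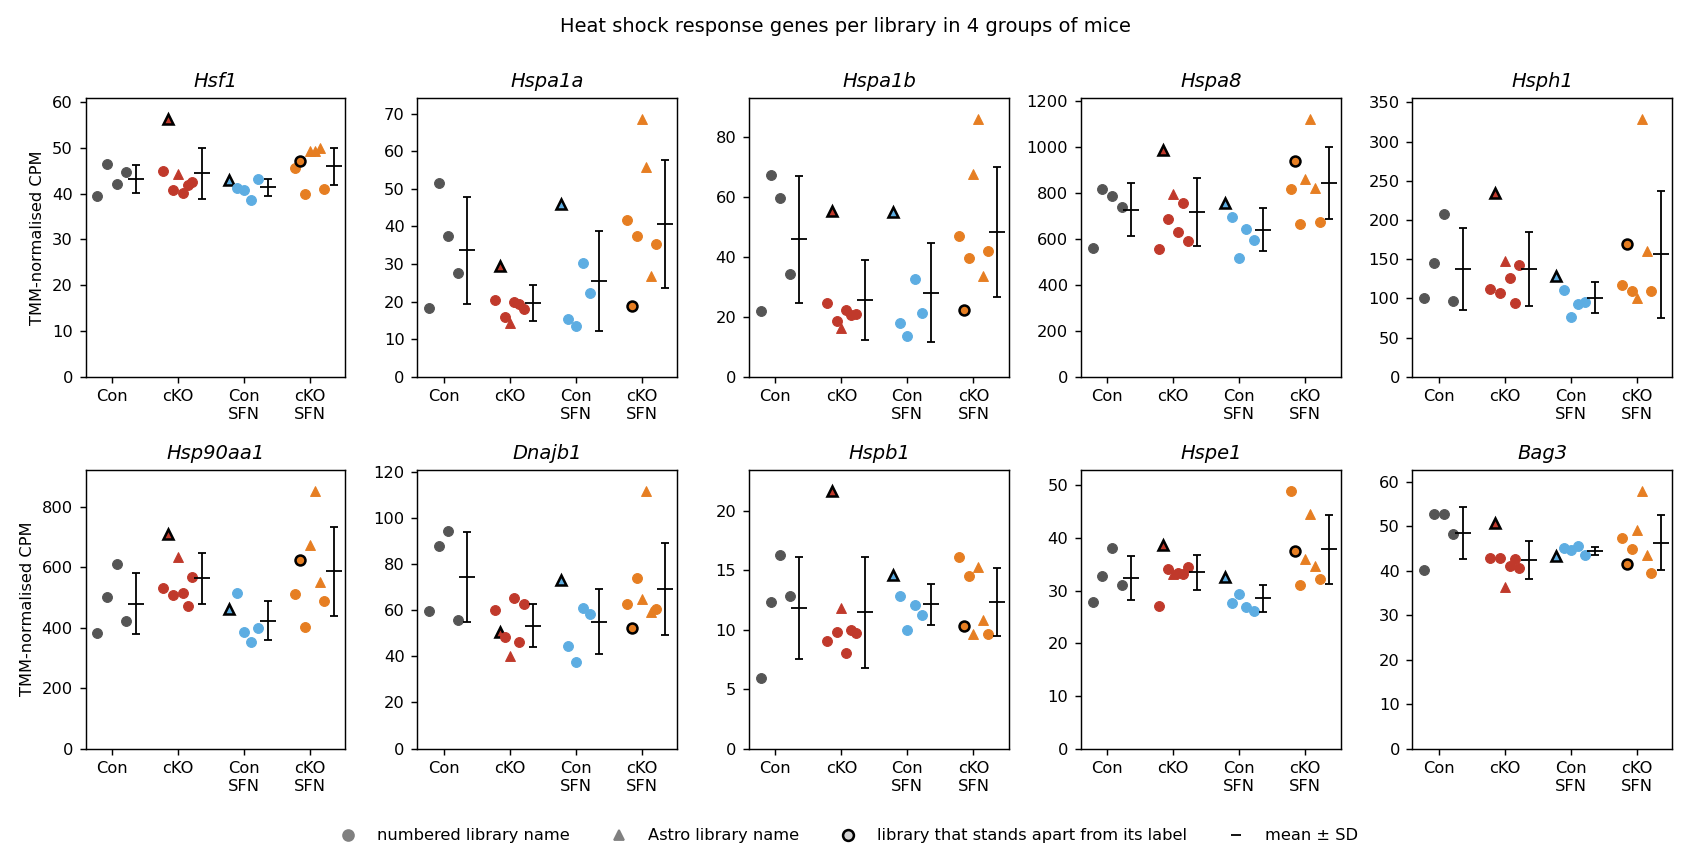
TMM-normalised CPM of each of the 10 genes in every library (1 mouse each, circles for numbered and triangles for Astro library names) of the 4 groups, with bars for the mean ± SD and black outlines for the 3 libraries that stand apart from their labels. For Hspa1a, cKOAstro libraries sit between 14.4 and 29.6 CPM and SFN-fed cKOAstro libraries between 18.9 and 68.6 CPM, and every axis starts at 0.

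On the control diet, no member passed the test between cKOAstro and ConAstro, and the fitted differences furthest from 0 were those of Hspa1b, Hspa1a and Dnajb1, all below 0. By edgeR's quasi-likelihood test with Benjamini-Hochberg adjustment, 0 of 10 members passed, where 4 of 17406 genes (0.023%) did, and the adjusted p of every member was at least 0.981. The log2 fold change was -0.85 ± 0.35 (SE) for Hspa1b, -0.78 ± 0.25 for Hspa1a, -0.49 ± 0.17 for Dnajb1 and -0.20 ± 0.09 for Bag3. These 4 members varied together over the 23 libraries (Pearson's r of log2 CPM from 0.62 to 0.96), so they are not independent of each other. All 4 had an unadjusted p under 0.05, against 2.03% of all genes in the lower direction, and 0 members did in the higher direction, against 1.71%. At that level DESeq2 gave 3 lower (1.95% of all genes) and limma-voom 4 (4.26%). Without ConAstro replicate 2, where Hspa1a and Hspa1b were highest, 0 members were under 0.05 (1.60% of all genes lower), and the Hspa1a difference was -0.50. Without ConAstro replicate 3 there was 1 lower (2.93%) and 1 higher (6.05%), and leaving out any cKOAstro library but replicate 2 gave 2 lower (1.38% to 2.79%). Without cKOAstro replicate 2, the library with Xist, the differences were -1.16 for Hspa1b, -0.90 for Hspa1a and -0.47 for Dnajb1 (adjusted p = 0.976 for each), and 4 members were lower at that level (1.93%). The cKOAstro libraries are also the reference of the contrast that put Hspa1a forward, so this comparison is not independent of that choice. No cKOAstro library shares a series of library names with ConAstro, so genotype and series cannot be told apart here.

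The other members sat close to 0 on the control diet. Hsp90aa1 differed by 0.22 ± 0.14, Hsf1 and Hspe1 each by 0.04 (SE 0.09 and 0.10), Hsph1 by -0.01 ± 0.27, Hspa8 by -0.03 ± 0.15 and Hspb1 by -0.05 ± 0.30. Over the 10 members 3 were higher and 7 lower, with a median log2 fold change of -0.04, beside -0.0072 over all genes tested. Dnajb1 had 59.5, 88.0, 94.3 and 55.9 CPM in the 4 ConAstro libraries and 40.3 to 65.4 CPM, median 50.4, in cKOAstro. All 7 cKOAstro libraries thus lay below the ConAstro median of Dnajb1, though the groups overlapped. Among marker lists, all 5 endothelial markers were lower in cKOAstro (median -0.39, sums of 149 to 414 CPM in ConAstro and 152 to 223 in cKOAstro), as were all 5 microglial markers (-0.24, 867 to 1320 and 243 to 1740 CPM). All 5 neuronal markers were higher (0.31, 170 to 430 and 249 to 663 CPM), as were all 4 ependymal markers (0.36, 196 to 569 and 220 to 547 CPM). The part of these markers in the members' values was not tested.

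SFN in ConAstro is the comparison that shares no library with the one that chose Hspa1a, and in it the members leaned lower. None of the 10 passed in edgeR (0% of 16509 genes did), and 0 had an unadjusted p under 0.05 in either direction, against 3% of all genes in the lower and 3.54% in the higher direction. At that level DESeq2 gave 2 (3.34% of all genes lower) and limma-voom 1 (4.13%), all lower. The difference was -0.73 ± 0.44 (adjusted p = 0.815) for Hspa1b, -0.46 ± 0.24 (adjusted p = 0.778) for Hsph1, -0.45 ± 0.22 (adjusted p = 0.777) for Dnajb1 and -0.42 ± 0.39 (adjusted p = 0.875) for Hspa1a. These are within the spread between mice. Hspa8, Hsp90aa1 and Hspe1 each had -0.19 (SE 0.14, 0.16 and 0.10), Bag3 -0.13 ± 0.08, Hsf1 -0.07 ± 0.06 and Hspb1 0.02 ± 0.25. Altogether 9 of 10 members were lower, with a median of -0.19 beside -0.0055 over all genes.

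The library with low Aldh7a1 weighed on this comparison. Without SFN-fed ConAstro replicate 1, all 10 members were lower, the median was -0.25, and 4 had an unadjusted p under 0.05 (4.43% of all genes lower), though 0 passed after adjustment. Hspa1b then differed by -1.12 (adjusted p = 0.583) and Hspa1a by -0.74 (adjusted p = 0.609). Leaving out ConAstro replicate 1, where both were lowest, gave 5 members lower at that level (3.18% of all genes), and leaving out ConAstro replicate 4 gave 2 (2.49%). Control-fed and SFN-fed libraries of ConAstro also came from name series that do not overlap, so diet and series cannot be told apart here. The 5 endothelial markers were higher on the SFN diet (median 0.61, sums of 149 to 414 CPM in ConAstro and 330 to 524 in SFN-fed ConAstro), as were the 5 microglial (0.23, 867 to 1320 and 574 to 1790 CPM), 3 oligodendrocyte precursor (0.34, 74.5 to 243 and 133 to 280 CPM) and 4 mural markers (0.32, 914 to 1320 and 1110 to 1730 CPM). The 4 ependymal markers were lower (-0.38, 196 to 569 and 138 to 378 CPM), 4 of 5 neuronal markers were higher (0.30), and the part of these markers was not tested.

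With the SFN diet in both genotypes, all 10 members had higher fitted levels in the deleted group (SFN-fed cKOAstro against SFN-fed ConAstro), and none passed the test in edgeR. The median over the 10 was 0.40, beside 0.0073 over 16672 genes. Of the 10, 5 had an unadjusted p under 0.05 in the higher direction, against 11.4% of all genes, and 0 in the lower, against 8.89%. After adjustment 0% of genes passed. At the unadjusted level DESeq2 gave 7 members higher (13.6% of all genes) and limma-voom 5 (17.6%, with 40.3% of genes under 0.05 in either direction). Without SFN-fed ConAstro replicate 1 the edgeR count was 8 (12.2% of all genes higher), and it was 3 without SFN-fed ConAstro replicate 2, 3 or 4 (8.23% to 9.29%). It was also 3 without SFN-fed cKOAstro replicate 5 (10.9%), and then 8 members were higher and 2 lower, with a median of 0.32. These libraries include the SFN-fed cKOAstro arm of the contrast that put Hspa1a forward.

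Hspe1 had the smallest p of the members in this comparison. In SFN-fed ConAstro its 5 values were 32.5, 27.7, 29.4, 26.9 and 26.1 CPM. Levels in SFN-fed cKOAstro were 31.1 to 49.0 CPM, median 36.0, and all 7 libraries lay above the SFN-fed ConAstro median, 5 of them above its highest library. The log2 fold change was 0.41 ± 0.11 (adjusted p = 0.195). It passed in DESeq2 (0.41, adjusted p = 0.0442), in limma-voom (0.38, adjusted p = 0.0119) and in edgeR without SFN-fed cKOAstro replicate 3 (0.45, adjusted p = 0.0462). In DESeq2 367 of 16672 genes passed, and in the other 2 fits 26.4% and 4.22% of all genes did. The call on Hspe1 thus depended on the tool and on the libraries used.

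The abundant chaperones and Hsf1 were next. Hspa8 was 755, 694, 515, 642 and 597 CPM in the SFN-fed ConAstro libraries and 664 to 1122 CPM, median 821, in SFN-fed cKOAstro, a difference of 0.39 ± 0.14 (adjusted p = 0.195). Hsp90aa1 had 463, 514, 387, 352 and 401 CPM against 403 to 855, median 551, or 0.47 ± 0.17 (adjusted p = 0.195). Hsph1 had 128, 111, 75.8, 93.4 and 95.4 CPM against 101 to 329, median 117, or 0.63 ± 0.28 (adjusted p = 0.234). For each of the 3 the groups overlapped, and SFN-fed cKOAstro replicate 5 was the highest library. Without that library Hsph1 differed by 0.34, Hsp90aa1 by 0.35 and Hspa8 by 0.31. Hsf1 itself differed by only 0.15 ± 0.07 (adjusted p = 0.243), from 38.6 to 43.1 CPM in SFN-fed ConAstro and from 40.0 to 49.9 in SFN-fed cKOAstro. Limma-voom, in which 26.4% of all genes passed, called these 4 genes too, with adjusted p from 0.0253 to 0.0469.

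Hspa1b and Hspa1a had the largest fitted differences of the 10 in this comparison, and the largest standard errors. Hspa1b was higher by 0.79 ± 0.38 (adjusted p = 0.258) and Hspa1a by 0.68 ± 0.35 (adjusted p = 0.288), and 6 of 7 SFN-fed cKOAstro libraries lay above the SFN-fed ConAstro median of Hspa1a. Dnajb1 differed by 0.33 ± 0.20 (adjusted p = 0.347), with 73.3, 44.6, 37.6, 61.0 and 58.3 CPM in SFN-fed ConAstro and 52.2 to 112 CPM, median 62.9, in SFN-fed cKOAstro. It was 0.18 without SFN-fed cKOAstro replicate 5. Bag3 (0.06 ± 0.08) and Hspb1 (0.02 ± 0.16) were closest to 0. Without the 2 SFN-fed libraries that go against their label, the differences were 1.30 for Hspa1b, 1.13 for Hspa1a, 0.52 for Dnajb1 and 0.46 for Hspe1 (adjusted p = 0.310 for each), 7 members had an unadjusted p under 0.05 (9.01% of all genes higher), and the median was 0.48. With these 2 and cKOAstro replicate 2 set aside, all 6 SFN-fed cKOAstro libraries lay above all 4 SFN-fed ConAstro libraries for Hspa1b and Hspe1, as they did for 3.05% of 17302 genes.

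Markers of other cells moved with this comparison. The 5 oligodendrocyte markers were all higher in SFN-fed cKOAstro (median 0.31), the 5 endothelial markers all lower (-0.68), the 4 mural markers all lower (-0.49), the 3 oligodendrocyte precursor markers all lower (-0.71), the 5 microglial markers all lower (-0.67) and the 4 ependymal markers all higher (0.28), none past the adjusted threshold. The summed oligodendrocyte markers were 17900 to 25200 CPM in SFN-fed ConAstro and 20000 to 46500 in SFN-fed cKOAstro, and the summed endothelial markers 330 to 524 and 127 to 526. Microglial sums were 574 to 1790 and 180 to 2070 CPM, mural sums 1110 to 1730 and 628 to 1520, precursor sums 133 to 280 and 77.2 to 238, and ependymal sums 138 to 378 and 173 to 459. The 6 astrocyte markers had a median of -0.06 and the 5 neuronal markers 0.09. The part of these markers in the differences of the chaperone genes was not tested.

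**Figure D2:**
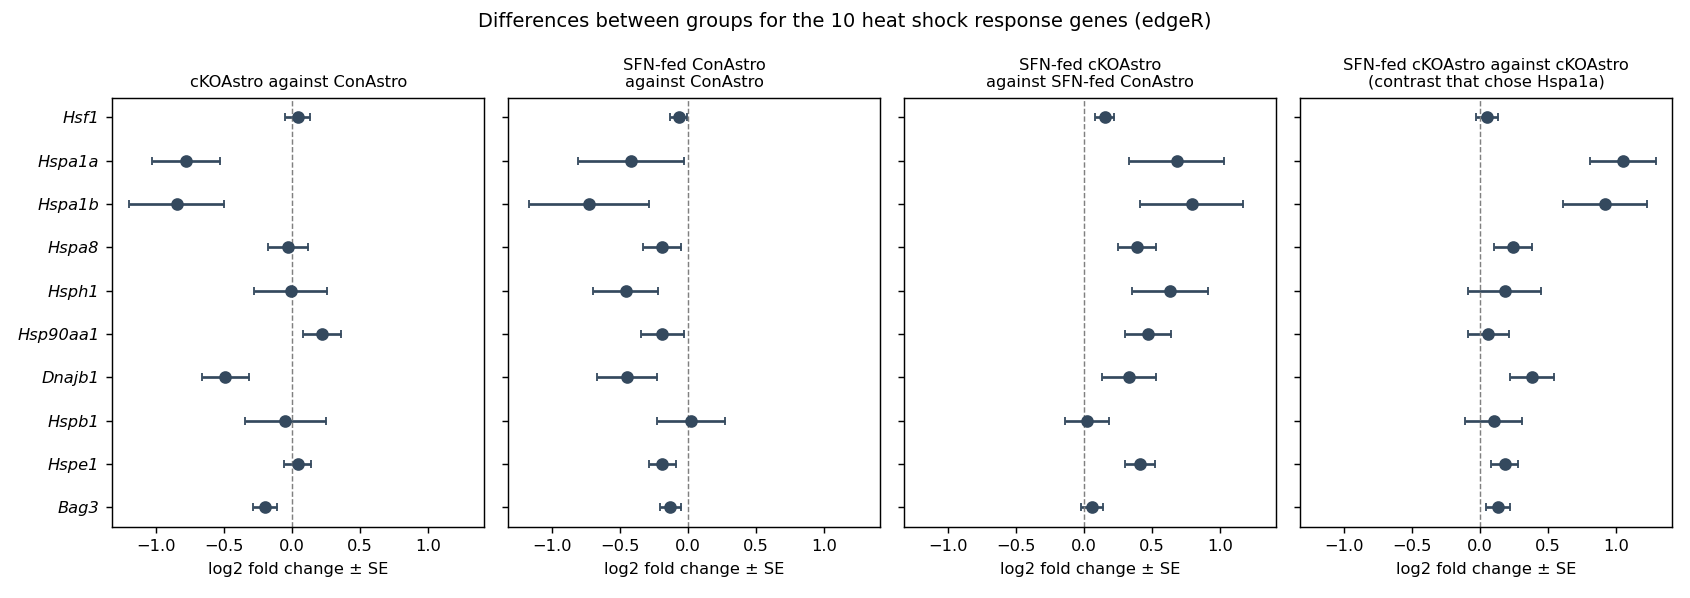
Log2 fold change ± SE (edgeR) of each of the 10 genes, 1 panel per comparison, with a dashed line at 0. On the SFN diet all 10 points are above 0, from 0.02 (Hspb1) to 0.79 (Hspa1b), and in ConAstro 9 of 10 points for SFN are below 0.

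The contrast that put Hspa1a forward was SFN-fed cKOAstro against cKOAstro, and its values are a description. Hspa1a had 20.4, 29.6, 15.9, 14.4, 19.9, 19.3 and 18.0 CPM in cKOAstro replicates 1 to 7 and 41.8, 18.9, 37.4, 68.6, 55.9, 26.8 and 35.3 in SFN-fed cKOAstro replicates 1 to 7. The fitted difference was 1.05 ± 0.24 on the log2 scale. Both outer values that made the groups overlap, 29.6 and 18.9 CPM, came from libraries that stand apart. Without those, cKOAstro libraries had 14.4 to 20.4 CPM and SFN-fed cKOAstro libraries 26.8 to 68.6 CPM, which do not overlap, and the difference was 1.31. Hspa1b differed by 0.92 ± 0.31, and by 1.36 without those libraries, with 16.3 to 24.5 CPM against 33.7 to 86.0 CPM. Hspa1a and Hspa1b were the only members whose groups then separated, a pattern that 0.173% of 17302 genes had. The rule already used these values, and cKOAstro replicate 2 was set aside after seeing the data. The share is therefore no test, and with all libraries the groups of every member overlapped.

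The other members had smaller fitted differences in that contrast. Dnajb1 was higher by 0.38 ± 0.16, Hspa8 by 0.24 ± 0.14, Hsph1 by 0.18 ± 0.27, Hspe1 by 0.18 ± 0.10, Bag3 by 0.13 ± 0.09, Hspb1 by 0.10 ± 0.21, Hsp90aa1 by 0.06 ± 0.15 and Hsf1 by 0.05 ± 0.08. All 10 were thus above 0, with a median of 0.18 beside 0.0061 over 16903 genes, of which 0% passed the adjusted threshold in edgeR (11 genes did in DESeq2 and 0 in limma-voom). Without SFN-fed cKOAstro replicate 5, 8 were higher and 2 lower, with a median of 0.10, and Hsph1 was then -0.11 and Hsp90aa1 -0.05. The 5 oligodendrocyte markers were also higher (median 0.34), as were the 5 endothelial markers (0.32), and the 4 mural (-0.40) and 4 ependymal (-0.42) markers were lower. In cKOAstro these lists summed to 18400 to 25900, 152 to 223, 1080 to 1550 and 220 to 547 CPM, and in SFN-fed cKOAstro to 20000 to 46500, 127 to 526, 628 to 1520 and 173 to 459 CPM. The 3 oligodendrocyte precursor markers were lower (-0.35, 124 to 249 and 77.2 to 238 CPM), as were 5 of 6 astrocyte markers (-0.13, 12900 to 20900 and 10100 to 20000 CPM) and 4 of 5 microglial markers (-0.21, 243 to 1740 and 180 to 2070 CPM). Depth was 107847897 to 391701247 counts in cKOAstro and 86276988 to 140464734 in SFN-fed cKOAstro. The part of markers or depth in these differences was not tested.

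Set against ConAstro on the control diet, members differed by -0.12 to 0.27 in SFN-fed cKOAstro. This is again a description, because the same SFN-fed libraries enter. Hsp90aa1 differed by 0.27 ± 0.20, Hspa1a by 0.26 ± 0.35, Hspe1 by 0.21 ± 0.13, Hspa8 by 0.20 ± 0.15 and Hsph1 by 0.16 ± 0.33. Hsf1 differed by 0.08 ± 0.08, Hspa1b by 0.06 ± 0.37, Hspb1 by 0.04 ± 0.24, Bag3 by -0.08 ± 0.11 and Dnajb1 by -0.12 ± 0.21. The standard errors of Hspa1a and Hspa1b exceeded their differences, so these values do not show equal levels. Without SFN-fed cKOAstro replicate 2 the difference was 0.40 for Hspa1a, 0.20 for Hspa1b and -0.05 for Dnajb1. Of the 10, 8 were higher and 2 lower, with a median of 0.12 beside -0.014 over 16753 genes, and 0% of genes passed in edgeR (8 in DESeq2, 656 in limma-voom). Without SFN-fed cKOAstro replicate 5, 5 were higher and 5 lower, with a median of 0.03. All 5 neuronal (median 0.40) and all 5 oligodendrocyte markers (0.33) were higher in SFN-fed cKOAstro. All 5 microglial (-0.46), 3 oligodendrocyte precursor (-0.41) and 4 ependymal markers (-0.10) were lower. So were 5 of 6 astrocyte markers (-0.16), 3 of 4 mural markers (-0.24) and 3 of 5 endothelial markers (-0.07). The part of these markers was not tested. The interaction of genotype and diet uses all 4 groups and contains the contrast that put Hspa1a forward, so it too is a description. It was 1.64 ± 0.55 for Hspa1b, 1.46 ± 0.46 for Hspa1a and 0.82 ± 0.28 for Dnajb1. Without the 3 libraries that stand apart these were 2.47, 2.03 and 0.99. It was 0.63 ± 0.41 for Hsph1, 0.42 ± 0.21 for Hspa8 and 0.36 ± 0.15 for Hspe1, and 0.25 or less for Bag3, Hsp90aa1, Hsf1 and Hspb1. All 10 were positive, with a median of 0.39 beside -0.0038 over 17302 genes, of which 0% passed in edgeR (3 genes in DESeq2, 0 in limma-voom). All comparisons share groups with others, so their values are not independent of each other.

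The libraries carry names in series (141, 143, 145, 146, 147 and Astro), and these do not spread evenly over the groups. All 4 ConAstro libraries belong to series 143, as do 3 SFN-fed cKOAstro libraries, while the numbered cKOAstro libraries are from 141 and 146. The Astro names hold 3 SFN-fed cKOAstro libraries, 2 of cKOAstro and 1 of SFN-fed ConAstro. What the series stands for is not given in the labels. Within the Astro names, Hspa1a was 14.4 and 29.6 CPM in cKOAstro and 26.8 to 68.6 CPM in SFN-fed cKOAstro, a log2 difference of 1.20, where the 29.6 CPM belonged to the library with Xist. With series (Astro or numbered) as a covariate the difference was 0.96, and among numbered libraries alone it was 0.81. Among the numbered libraries, Dnajb1 differed by 0.11, against 0.80 within the Astro names.

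Within series 143, the SFN-fed cKOAstro libraries could be set beside ConAstro directly. There Hspa1a was 18.2 to 51.5 CPM in ConAstro and 18.9 to 41.8 CPM in SFN-fed cKOAstro (log2 difference -0.09), Hspa1b differed by -0.33 and Dnajb1 by -0.37. One of these libraries, at 18.9 CPM of Hspa1a, is the one whose Aldh7a1 was at the control level, and without it the differences were 0.17 for Hspa1a, -0.08 for Hspa1b and -0.30 for Dnajb1. The sign of Hspa1a in this series thus rested on that library, and all of these values lie within the spread between mice. In series 147, 1 SFN-fed cKOAstro library had 37.4 CPM of Hspa1a and 2 SFN-fed ConAstro libraries 22.2 and 30.2, a difference of 0.52 with no replicate check, and Hspa1b differed by 0.57 and Hspe1 by 0.22. The low SFN-fed ConAstro values of Hspa1a, 13.5 and 15.4 CPM, were both from series 145. With series as a covariate, the genotype difference on the SFN diet was 0.55 for Hspa1a (adjusted p = 0.359) and 0.39 for Hspe1 (adjusted p = 0.283).

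**Figure D3:**
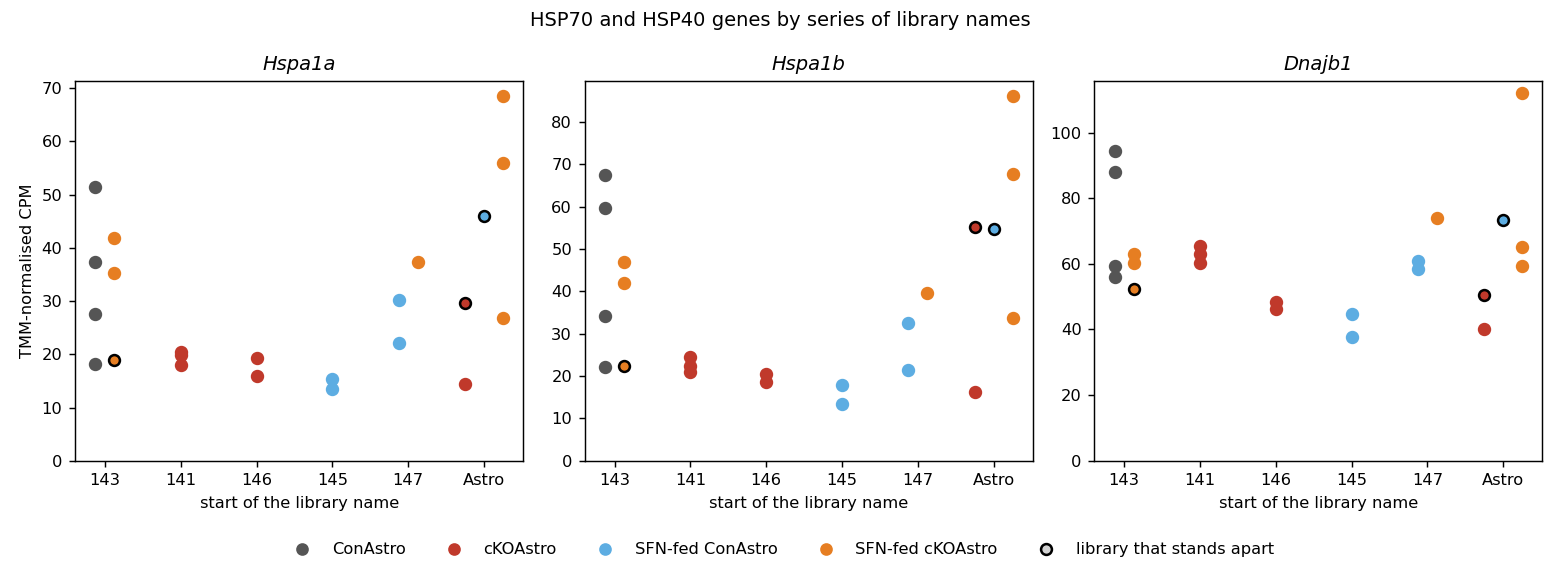
TMM-normalised CPM of Hspa1a, Hspa1b and Dnajb1 in each library (points) by the start of the library name, coloured by group, with black outlines for libraries that stand apart. Series 141 and 146 hold cKOAstro libraries alone, at 15.9 to 20.4 CPM of Hspa1a, and series 143 holds all 4 ConAstro libraries, at 18.2 to 51.5 CPM.

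The members fell into sets that varied together over the 23 libraries, given here as Pearson's r of log2 CPM. Hspa1a and Hspa1b had r = 0.96 (Spearman's rho 0.95), which is the highest of 17301 genes for Hspa1a, in counts that leave out reads fitting both copies. Dnajb1 had r = 0.77 with Hspa1a and 0.80 with Hspa1b, and Bag3 had 0.67 with Hspa1a and 0.75 with Hspa1b. A further set was formed by Hsph1 and Hsp90aa1 (0.82), Hspa8 and Hsp90aa1 (0.76) and Hspa8 and Hsph1 (0.75). Hsf1 had 0.74 with Hspa8 and 0.72 with Hsp90aa1 but 0.39 with Hspa1a and 0.14 with Dnajb1, the lowest of all pairs. Hsp90aa1 had only 0.28 with Hspa1a (rho 0.13), and Hspb1 and Hspe1 each had 0.45. Without the 3 libraries that stand apart, r was 0.97 for Hspa1a with Hspa1b, 0.78 for Hspa1a with Dnajb1, 0.79 for Hsph1 with Hsp90aa1, 0.53 for Hsf1 with Hspa1a and 0.34 for Hsf1 with Dnajb1. Libraries share group, series and depth, so these values are descriptions.

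Among genes outside the set, the 5 most like Hspa1a over the 23 libraries were Jmjd6 (r = 0.82, rho 0.79), Nob1 (0.81, 0.80), Uspl1 (0.76, 0.71), U2af2 (0.74, 0.70) and Med20 (0.74, 0.72). Without the 3 libraries that stand apart their r was 0.75 to 0.82. Only Hspa1b, Jmjd6 and Nob1 ranked above Dnajb1, which ranked 4 of 17301 genes. Bag3 ranked 51 and Hspa8 376, while Hsp90aa1 ranked 3207.

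**Figure D4:**
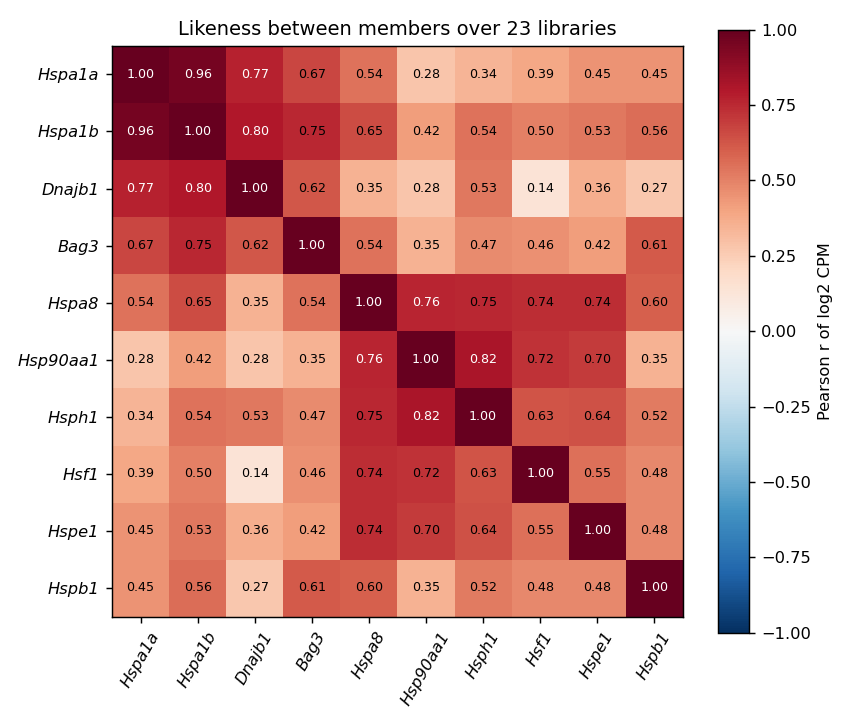
Pearson's r of log2 CPM between each pair of the 10 genes over 23 libraries, with colour and printed value for r. Hspa1a, Hspa1b and Dnajb1 form a block with r of 0.77 to 0.96, Hspa8, Hsp90aa1 and Hsph1 another with 0.75 to 0.82, and Hsf1 with Dnajb1 is lowest at 0.14.

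Other chaperone genes, in lists written with earlier results of these data known, were counted in the same way, and 0 genes on any list passed the adjusted threshold of edgeR in any of the 6 comparisons. For genotype on the SFN diet, all 8 HSP90 and co-chaperone genes were higher in SFN-fed cKOAstro (median 0.31, 7 with an unadjusted p under 0.05), as were all 8 subunits of the cytosolic chaperonin (0.22, 6 of 8) and all 7 J-domain co-chaperones (0.24, 5 of 7). In the background, 11.4% of genes were higher at that level. For SFN in ConAstro the same lists had medians of -0.19, -0.05 and -0.07. The 2 genes with the lowest p there were Chordc1 (-0.24 ± 0.10) and Ahsa1 (-0.20 ± 0.09), an activator of the HSP90 ATPase, in the first list. They were Cct3 (-0.11 ± 0.06) and Cct5 (-0.08) in the chaperonin, and Dnajb4 (-0.13 ± 0.06) and Dnaja1 (-0.17 ± 0.10) in the J-domain list.

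The remaining chaperone lists lay near 0 for SFN in ConAstro. Medians were -0.04 for Hsf2, Hsf4 and Hsbp1, -0.06 for 8 other HSP70 and HSP110 genes, -0.05 for 4 small heat shock proteins, -0.06 for 3 mitochondrial chaperones, -0.03 for 4 BAG co-chaperones and -0.08 for 8 genes of endoplasmic reticulum stress. Their genotype medians on the SFN diet were 0.02, 0.06, 0.18, 0.12, 0.10 and 0.21. By the lowest p for SFN in ConAstro these lists were led by Hsf2 (-0.10 ± 0.07) and Hsbp1 (-0.04 ± 0.05), Hspa12a (0.21 ± 0.11) and Hspa2 (-0.22 ± 0.14), Hspb2 (-0.12) and Hspb6 (0.06). They were also led by Hspd1 (-0.12 ± 0.07), the partner of Hspe1, and Trap1 (-0.06 ± 0.04), Bag2 (-0.19 ± 0.25) and Bag1 (-0.05), and Hspa5 (-0.20 ± 0.15) and Ddit3 (-0.13). Every one of these differences had an adjusted p of at least 0.762.

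Immediate early genes, which dissociation also induces, had the opposite signs to the members in 2 comparisons and the same signs in 2 others. For SFN in ConAstro, 15 of 16 were higher (median 0.31), led by Klf2 (0.77 ± 0.23) and Dusp1 (0.50 ± 0.16), while 9 of the 10 heat shock response genes were lower. Of the 16, 6 had an unadjusted edgeR p under 0.05 in the higher direction, against 3.54% of all genes. On the SFN diet all 16 were lower in SFN-fed cKOAstro (median -0.34), while all 10 heat shock response genes were higher. On the control diet 14 of 16 were lower (median -0.11), beside 7 of 10 members, and for SFN in cKOAstro 15 of 16 were higher (median 0.14), beside all 10 members. Their summed level was 1420 to 2100 CPM in ConAstro, 1390 to 2090 in cKOAstro, 1740 to 2430 in SFN-fed ConAstro and 1280 to 2340 in SFN-fed cKOAstro. The members summed to 1260 to 1950, 1430 to 2240, 1170 to 1650 and 1460 to 2730 CPM in the same groups. The part of dissociation in either was not tested. NRF2 targets, the genes SFN is known for, had medians of 0.03 both for SFN in ConAstro and for SFN in cKOAstro over 8 genes, with 0 past the adjusted threshold. In ConAstro they ran from -0.10 to 0.08, led by Gclm (0.08 ± 0.05) and Txnrd1 (-0.04). In cKOAstro they ran from -0.18 to 0.29, with 1 higher and 1 lower at an unadjusted edgeR p under 0.05 (5.38% and 5.5% of all genes). The paper reported that a shorter SFN diet normalized NRF2 protein in astrocytes of cKOAstro mice, and protein was not measured here.

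**Figure D5:**
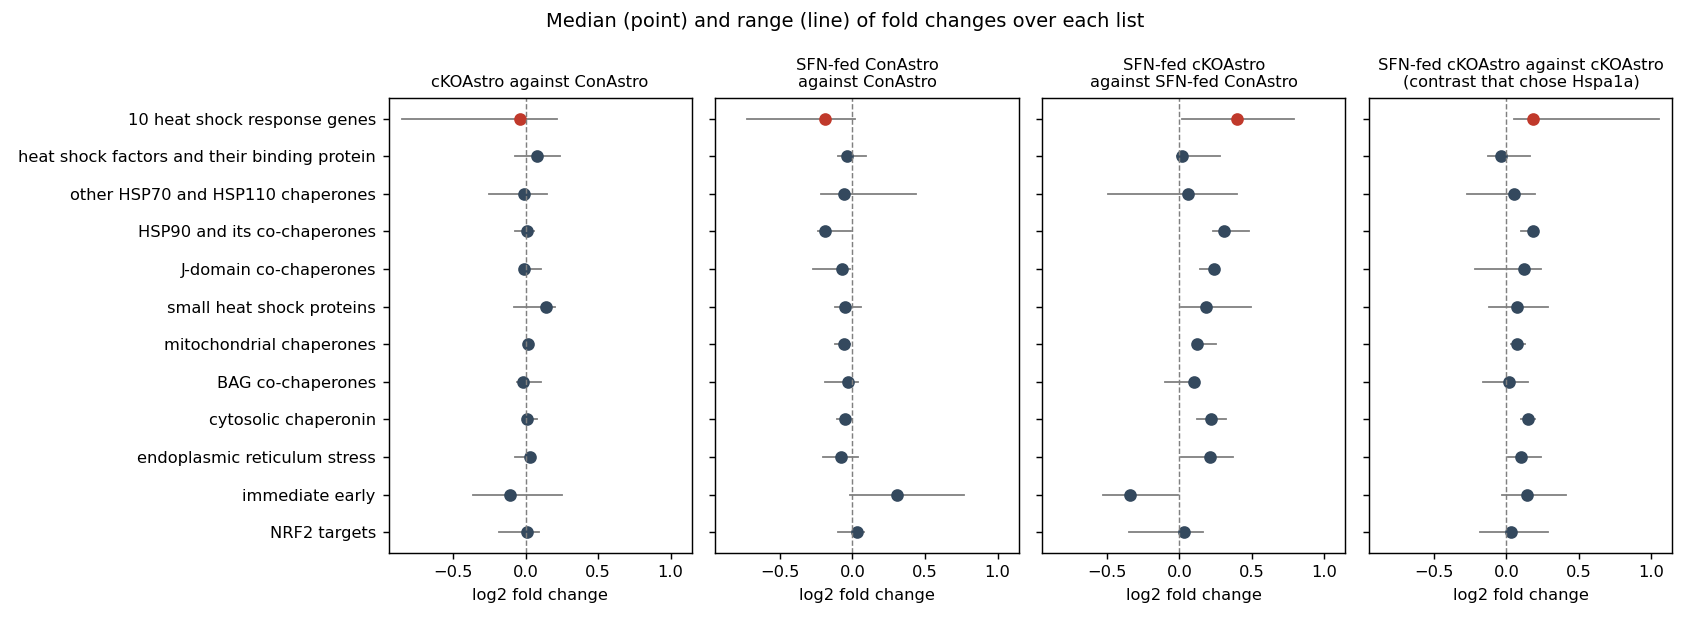
Median (point) and range (line) of log2 fold changes over the 10 heat shock response genes (red) and each of the other lists, 1 panel per comparison, with a dashed line at 0. On the SFN diet the medians are 0.40 for the heat shock response genes, 0.31 for HSP90 and its co-chaperones and -0.34 for immediate early genes.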

How the data were processed

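RNA of sorted cortical astrocytes was sequenced from 23 mice in 4 groups. The authors checked reads with FastQC, aligned them to mm10 with STAR and deposited raw counts of reads per gene symbol with its GeneCounts option, which counts uniquely mapped reads. Tool versions, the annotation and the strand setting were not given in the sources used here. Counts were used as deposited and 0 columns of samples were left unused.

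Counts were tested with edgeR 4.0.16 (R 4.3.3, limma 3.58.1): quasi-likelihood test, trimmed mean of M values (TMM), filterByExpr (minimum count 10, minimum total 15). Each comparison was fitted on its 2 groups and the interaction on all 4 groups. P-values were adjusted over all genes tested by Benjamini-Hochberg, with a threshold of 0.05. Levels are TMM-scaled CPM, with a prior count of 2 on the log2 scale, and intervals between replicates cover the spread between mice. The edgeR fits of the tested comparisons were run on simulated counts with the same dispersion for every gene. Those counts had no series effect and no outlying library, so they do not cover such features of these data. No pair of libraries of a group was alike within counting noise (lowest chi-square per degree of freedom 44.1).

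All 10 members were named. Of each other list, the 2 genes with the lowest p for SFN in ConAstro were named, and for likeness to Hspa1a the 5 genes with the highest r. The members and the 20 other lists (11 of pathways, 9 of cell type markers) were chosen with earlier results of these data known. Alternatives were DESeq2 1.42.0, limma-voom with quality weights, other normalization and filtering, 1 fit of all groups, the replicate number as a block, name series, and leaving out libraries. Fits that leave out cKOAstro replicate 2 with others, and fits within a single name series, were added after seeing the data. Exon lengths and overlaps came from GENCODE M21 (GRCm38) and upstream sequences from RefSeq (GRCm38.p6).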

Additional observations from a re-analysis of the deposited data

Results flagged for a closer look

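In 40 groups of libraries (10 genes in 4 groups), 3 had a library far from the others by Dixon's test, and chance gives about 1 in 20. All 3 were in the library labelled cKOAstro replicate 2, which also had Xist. Its Hsf1 level was 56.3 CPM, against 44.9 in the nearest cKOAstro library. Its Hspa1b level was 55.2 CPM, against 24.5 in the nearest. Its Hspb1 level was 21.7 CPM, against 11.8 in the nearest.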

How the results depend on the processing

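On the SFN diet the number of members past the adjusted threshold for genotype, 0 in edgeR, was 1 in DESeq2 (Hspe1, where 367 of 16672 genes passed). It was 5 in limma-voom with quality weights (Hsf1, Hspa8, Hsph1, Hsp90aa1 and Hspe1), in a fit where 26.4% of all genes passed. It was 0 to 1 when single libraries were left out (Hspe1 without SFN-fed cKOAstro replicate 3, where 4.22% of all genes passed). For SFN in cKOAstro the DESeq2 count was 1, where 11 of 16903 genes passed, which is no test because the choice of Hspa1a used these values. The sign of Hspa1a held in each alternative of the tested comparisons. It ranged from -0.99 to -0.50 for genotype on the control diet, from -0.74 to -0.14 for SFN in ConAstro and from 0.49 to 1.00 for genotype on the SFN diet when single libraries were left out. Signs turned for members near 0. On the control diet, Hsph1 was 0.00141 in DESeq2, 0.00143 with relative log expression normalization, 0.0124 in limma-voom, 0.000459 with all 4 groups in 1 fit and 0.123 with the replicate block. Hsf1 was -0.0356 in limma-voom and -0.0285 in numbered libraries, and with the replicate block Hspa8 was 0.0317 and Hspb1 0.135. Without single libraries the control diet values ranged from -0.0248 to 0.0768 for Hsf1, -0.132 to 0.0385 for Hspa8, -0.182 to 0.266 for Hsph1, -0.279 to 0.144 for Hspb1 and -0.0249 to 0.125 for Hspe1. For SFN in ConAstro, Hspb1 was -0.0494 both in numbered libraries and without the library that goes against its label, and -0.197 to 0.22 without single libraries. For genotype on the SFN diet, Hspb1 was -0.0124 in limma-voom and Bag3 -0.0617 in numbered libraries, with ranges of -0.0517 to 0.102 and -0.00572 to 0.0902 without single libraries. The cause was not tested. The replicate numbers did not pair the samples, since 0 of 4 to 2 of 4 same-numbered pairs per comparison deviated together (r from -0.21 to 0.34), and the replicate block left 0 members called. With 4 to 7 mice a group, these values carry the spread between mice, and the part of depth was not tested.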
